A study of Mus musculus with 6 samples.

Results

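The genes described here are 10 members of the vascular endothelial growth factor (VEGF) and angiopoietin systems, taken by symbol from the 25683 genes of the deposited count table. They are the ligands Vegfa, Vegfb and Vegfc, the receptors Flt1, Kdr and Flt4, the co-receptor Eng, and the angiopoietins Angpt1, Angpt2 and Angpt4. Of the 10 genes, 9 had enough reads to be tested and Angpt1 did not. RNA-seq was done on 6 libraries of cells labelled as a primary line of smooth muscle cells from the mouse aorta. Libraries 1 to 3 came from cells labelled as Nt5e knock-out (KO), and libraries 4 to 6 from cells labelled as wild type (WT). Nt5e encodes CD73, the surface enzyme that makes adenosine from AMP outside the cell. Cells of both genotypes were grown at 10% fetal bovine serum and then kept at 0.5% serum for 48 h, so the values are those of serum-starved cells. The labels do not state the Nt5e allele, the animals' age or sex, or whether the libraries of a genotype came from separate animals or cultures. P-values therefore measure the spread between these libraries, which may be partly technical.

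VEGFA is the main signal for the growth of blood vessels and acts through the tyrosine kinase receptors FLT1 (VEGFR1) and KDR (VEGFR2). KDR carries most of the mitogenic signal in endothelium, and FLT1, which also exists as a secreted form, binds VEGFA and VEGFB tightly and can act as a decoy. VEGFC and VEGFD signal through FLT4 (VEGFR3), the receptor of lymphatic endothelium. The angiopoietins bind the receptor TEK (TIE2) on endothelium: ANGPT1, made by mural cells, activates it and ANGPT2 opposes ANGPT1 in many settings. Endoglin, the product of Eng, is a co-receptor for ligands of the TGF-beta family, above all BMP9 with the receptor ALK1 (Acvrl1). In the vessel wall smooth muscle cells are known as a source of ligands, and most of the receptors are known from endothelium.

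The libraries held 19919095 to 23669252 exon reads. Nt5e itself had 22, 1 and 2 reads in KO libraries 1, 2 and 3, and 615, 688 and 486 reads in WT libraries 4, 5 and 6, which gave a log2 fold change in edgeR of -6.06 ± 0.82 (SE) with an adjusted p of 0.00577. The libraries of a genotype were not evenly spaced. KO libraries 2 and 3 differed by a biological coefficient of variation of 3.66% and WT libraries 4 and 6 by 3.49%, whereas KO library 1 lay 44.6% and 45.1% from the other KO libraries and 43.7% to 48.0% from the WT libraries. WT library 5 lay 14.97% and 15.7% from the other WT libraries. Titles open with a stem that the labels do not explain, KO2 for KO libraries 1 and 2 and KO5 for KO library 3. The stem is WT10 for WT library 4 and WT11 for WT libraries 5 and 6, so the nearly identical pairs differ in stem. Each title carries, after the letter p and its number, a further number that the labels do not explain, which is 1 for KO library 1 and WT library 5 and 2 for the other libraries (here the title number). The number after p is 11 for KO library 1 and WT libraries 4 and 5. It is 12 for KO libraries 2 and 3 and WT library 6. Among KO libraries the p number and the title number thus separate the same libraries and cannot be told apart. Against the labelled cell type, Acta2 and Cald1 were present, at 73.8, 546 and 525 CPM (exon counts scaled to library size with TMM factors) for Acta2 in the KO libraries and 69.2, 51.9 and 101 CPM in the WT libraries. The more restricted smooth muscle markers Des and Myocd had no more than 4 reads in any library, and Myh11 had 5, 54 and 67 reads in KO and 3, 3 and 1 in WT libraries. Cnn1 went the other way, with 14, 5 and 5 reads in KO and 38, 32 and 69 in WT libraries. It was called as lower in KO (log2 -2.45, adjusted p = 0.0246). Smtn was called as higher (log2 0.55, adjusted p = 0.0296), and Tagln did not pass the test (log2 0.33, adjusted p = 0.202). Of 18 endothelial markers, Tie1, Cldn5, Sox17 and Robo4 had 0 reads in every library, Pecam1 had 4 reads over the KO and 6 over the WT libraries, and Cdh5 had 2 reads over the KO and 0 over the WT libraries. The endothelial list summed to 10.6 to 42.9 CPM in KO and 13.7 to 14.3 CPM in WT libraries, most of it Ptprb in KO libraries 2 and 3. Of its 4 tested markers Ptprb was called as higher and Ecscr as lower in KO (log2 -1.61, adjusted p = 0.0487), with 45, 39 and 39 reads in KO and 169, 60 and 172 reads in WT libraries. Vwf and Erg, below the filter, had 7 and 11 reads over the KO and 44 and 46 over the WT libraries. The leukocyte list summed to 6.36 to 16.9 CPM in KO and 4.45 to 7.04 CPM in WT libraries, with Ptprc, Adgre1, Itgam and Tyrobp at 0 reads in every library. Most of the KO sum was Lyz2, with 5.28, 14.6 and 12.2 CPM in KO and 2.68, 1.19 and 1.53 CPM in WT libraries. Lyz2 was called as higher in KO (log2 2.57, adjusted p = 0.0156). Cd68 was called as lower (log2 -2.33, adjusted p = 0.00704), with 19, 11 and 8 reads in KO and 78, 71 and 56 in WT libraries.

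Promoter sequence is shown for 4 of the 6 genes that passed the test, those whose RefSeq start lies at or within 3 bases of the gene start in the count table, because their transcript levels are what the results turn on. Each line is the 250 bases before the RefSeq start (build GRCm38.p6), written 5′ to 3′ on the gene's strand, with capitals marking the GC box GGGCGG or its complement CCGCCC. The windows are chr19:6987652-6987901 on the minus strand for Vegfb, chr5:75978456-75978705 on the minus strand for Kdr, chr2:32646345-32646594 on the plus strand for Eng and chr2:151910957-151911206 on the plus strand for Angpt4.
Vegfb: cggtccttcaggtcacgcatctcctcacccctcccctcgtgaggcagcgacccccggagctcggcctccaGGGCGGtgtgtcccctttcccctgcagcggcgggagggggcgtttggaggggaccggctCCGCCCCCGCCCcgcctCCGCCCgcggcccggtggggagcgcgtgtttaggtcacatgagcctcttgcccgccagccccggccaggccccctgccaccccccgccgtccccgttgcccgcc
Kdr: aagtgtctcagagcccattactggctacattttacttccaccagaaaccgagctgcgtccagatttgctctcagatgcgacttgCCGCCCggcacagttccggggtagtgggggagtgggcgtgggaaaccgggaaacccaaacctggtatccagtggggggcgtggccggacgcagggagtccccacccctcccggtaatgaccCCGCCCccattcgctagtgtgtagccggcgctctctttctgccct
Eng: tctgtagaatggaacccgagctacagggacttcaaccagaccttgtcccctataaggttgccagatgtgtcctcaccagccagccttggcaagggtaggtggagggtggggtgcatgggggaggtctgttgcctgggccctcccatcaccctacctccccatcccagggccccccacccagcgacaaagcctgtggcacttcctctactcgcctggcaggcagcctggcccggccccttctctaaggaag
Angpt4: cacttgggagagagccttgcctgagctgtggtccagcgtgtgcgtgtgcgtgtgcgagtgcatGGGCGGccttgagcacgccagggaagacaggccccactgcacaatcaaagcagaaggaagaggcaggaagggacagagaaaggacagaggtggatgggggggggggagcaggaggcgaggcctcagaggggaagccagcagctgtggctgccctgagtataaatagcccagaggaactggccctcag

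The GC box occurred 4 times before Vegfb, 2 times before Kdr, 1 time before Angpt4 and 0 times before Eng. Among 32851 RefSeq promoter windows of the same length, 32.7% held it at least once. A core of the hypoxia response element, ACGTG on either strand, is in 16.6% of all windows and in 0 of these 4, and the palindrome GGCGCC, which can overlap a GC box, is in 9.59% of all windows and in 0 of these 4. The share of G and C was 76.4% before Vegfb, 61.6% before Kdr, 62.4% before Eng and 62.4% before Angpt4, against a median of 52.4% over all windows. These are matches of letters and not measured binding.

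Per length of exon, Eng, Vegfa and Vegfb were the abundant members in both genotypes, and the receptors Flt1, Kdr and Flt4 were scarce, as were Angpt4 and Angpt1. On the deposited RPKM scale (exon reads scaled by exon length and depth), the order in KO libraries was Eng with 68.5 ± 8.11, Vegfb with 45.2 ± 3.55, Vegfa with 33.5 ± 13.6, Angpt2 with 13.6 ± 0.766 and Vegfc with 8.45 ± 3.67 RPKM (mean ± SD, n = 3). Below them in KO libraries came Flt1 with 1.01 ± 0.676, Kdr with 0.722 ± 0.345, Flt4 with 0.143 ± 0.230, Angpt4 with 0.127 ± 0.0737 and Angpt1 with 0.00645 RPKM. In WT libraries the order was Vegfa with 27.6 ± 7.69, Eng with 25.7 ± 4.93, Vegfb with 25.1 ± 4.26, Vegfc with 10.1 ± 0.799 and Angpt2 with 2.80 ± 2.15 RPKM. Then followed in WT libraries Flt4 with 2.73 ± 0.422, Angpt4 with 1.78 ± 1.03, Flt1 with 0.282 ± 0.189, Kdr with 0.0857 ± 0.0397 and Angpt1 with 0.0157 RPKM. Neighbours whose library values overlapped were Vegfb with Vegfa, and each neighbouring pair from Flt1 to Angpt4, in KO, and Vegfa with Eng, Eng with Vegfb, Angpt2 with Flt4 and Flt4 with Angpt4 in WT. Among the 3 VEGF receptors the highest in KO libraries 2 and 3 was Flt1, and in every WT library it was Flt4.

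**Figure D1:**
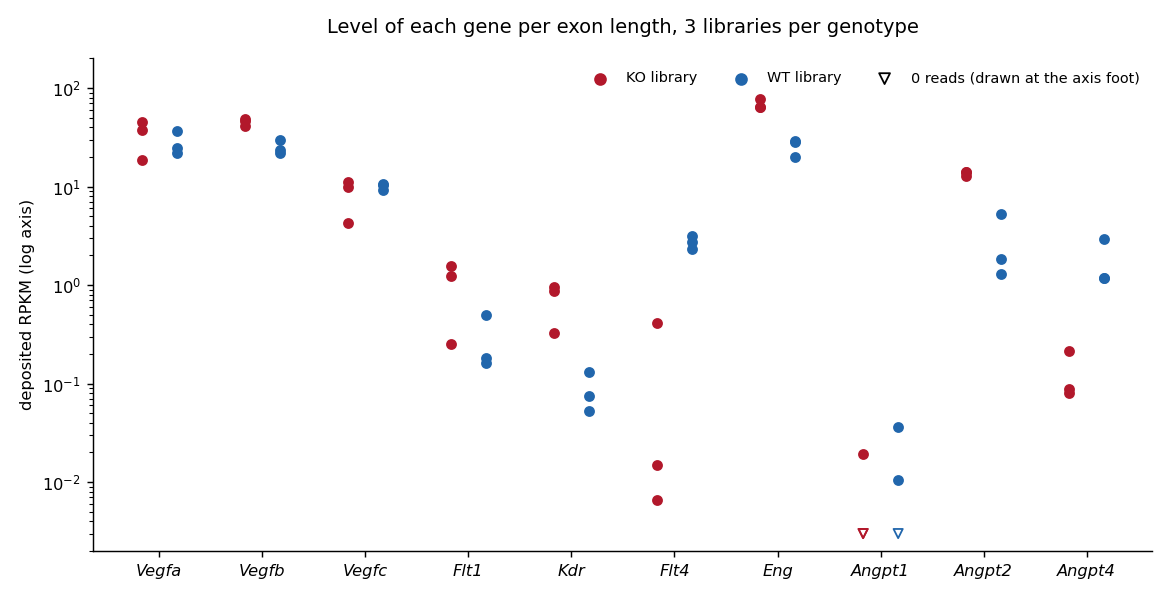
Deposited RPKM of each gene (log axis) in the 3 KO libraries, left of each name in red, and the 3 WT libraries, right in blue, with open triangles at the foot for 0 reads. Eng, Vegfb and Vegfa lie highest in both genotypes, and Flt4 is spread widely in KO, at 0.143 ± 0.230 RPKM, against 2.73 ± 0.422 RPKM in WT.

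Of the 9 tested members, 6 differed between KO and WT libraries at an adjusted p under 0.05 in edgeR's quasi-likelihood test. Vegfb, Kdr, Eng and Angpt2 were higher in KO and Flt4 and Angpt4 were lower. Over all 12660 tested genes the test called 27.8% in either direction, 14.1% as higher and 13.7% as lower in KO. The KO and WT values did not overlap for the same 6 of the 9 members, beside 49.7% of all tested genes. Kdr would not have passed the count filter on its WT libraries, nor Flt4 and Angpt4 on their KO libraries. The filter therefore shapes both counts of members. Vegfa, Vegfc and Flt1 overlapped between genotypes and did not pass the test. When KO libraries 2 and 3, and likewise WT libraries 4 and 6, were summed so that each nearly identical pair counted as 1 sample, edgeR called 0 of the 9 members, beside 0.13% of all genes, and 5 members (Vegfb, Kdr, Eng, Angpt2 and Angpt4) had an unadjusted p under 0.05. Without KO library 1, 8 of the 9 members were called, all but Vegfc, beside 66.2% of all genes.

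Among the ligands only Vegfb passed the test. Vegfb, a ligand of FLT1, had 55.6, 70.5 and 66.9 CPM in KO libraries 1, 2 and 3, and 29.1, 40.4 and 31.5 CPM in WT libraries 4, 5 and 6. Every KO library was above every WT library, with the lowest KO value in library 1 and the highest WT value in library 5. The means were 64.4 ± 7.77 CPM in KO and 33.7 ± 5.96 CPM in WT (SD, n = 3 each), a 1.91-fold higher level in KO (log2 0.93 ± 0.16 SE, adjusted p = 0.0104). The call was lost without WT library 4 (adjusted p = 0.0513) and without WT library 6 (adjusted p = 0.0543). The gene lies at chr19:6982473-6987651 on the minus strand (GRCm38).

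Vegfa, at chr17:46016993-46032369 on the minus strand, had 68.4, 179.9 and 149.6 CPM in KO libraries and 89.9, 135.5 and 81.2 CPM in WT libraries. KO library 1 was below all WT libraries, and KO libraries 2 and 3 were above all of them. The means were 132.6 ± 57.6 CPM in KO and 102.2 ± 29.2 CPM in WT, and the log2 fold change was 0.38 ± 0.39 (SE, adjusted p = 0.494). Without KO library 1 it was 0.68 with an adjusted p of 0.0302. Total exon reads do not separate the splice forms of Vegfa.

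Vegfc, a ligand of FLT4, at chr8:54077606-54187096 on the plus strand, had 10.95, 30.9 and 27.9 CPM in KO libraries and 27.4, 23.7 and 26.3 CPM in WT libraries. Here too KO library 1 was the lowest of all 6 libraries and the other KO libraries were the highest. The log2 fold change was -0.15 ± 0.37 (SE, adjusted p = 0.784), and without KO library 1 it turned to 0.18 (adjusted p = 0.106). Of the ligands that are not among the 10 genes, Vegfd was the most abundant VEGF transcript of these cells per length, with 115.7 ± 11.8 RPKM in KO and 142.5 ± 22.5 RPKM in WT libraries. Its log2 fold change was -0.22 ± 0.13 (SE, adjusted p = 0.245), with 277, 246 and 264 CPM in KO and 339.8, 253 and 325 CPM in WT libraries. Pgf, which encodes a further FLT1 ligand, had 10 reads over the KO and 4 over the WT libraries and was not tested.

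The receptors moved in different directions. Kdr, at chr5:75932827-75978458 on the minus strand, had 47, 138 and 111 reads in KO libraries and 18, 8 and 10 reads in WT libraries. This corresponds to 2.03, 6.50 and 5.91 CPM in KO and 0.803, 0.329 and 0.463 CPM in WT libraries. Every KO library was above every WT library, with KO library 1 the lowest of the KO libraries. The means were 4.81 ± 2.43 CPM in KO and 0.532 ± 0.244 CPM in WT, an 8.98-fold higher level in KO at a low absolute level (log2 3.17 ± 0.59 SE, adjusted p = 0.0138). The call was lost without WT library 5 (adjusted p = 0.0578) and without WT library 6 (adjusted p = 0.0674), and Kdr did not reach a filter of 50 reads in 3 libraries. In bulk RNA a change in the number of cells that express a gene and a change in RNA per cell cannot be told apart, and this holds for every gene described here.

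Flt1, at chr5:147561604-147726011 on the minus strand, had 2.90, 19.3 and 15.5 CPM in KO libraries and 1.87, 5.80 and 2.08 CPM in WT libraries. KO libraries 2 and 3 were above all WT libraries, but KO library 1 was below WT library 5. The means were 12.6 ± 8.57 CPM in KO and 3.25 ± 2.21 CPM in WT. The log2 fold change of 1.94 ± 0.79 (SE) had an adjusted p of 0.119 in edgeR, 0.034 in DESeq2 and 0.00342 in edgeR without KO library 1. The counts do not separate full-length from secreted FLT1.

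Flt4, at chr11:49609263-49652739 on the plus strand, had 62, 1 and 2 reads in KO libraries 1, 2 and 3, and 399, 372 and 445 reads in WT libraries 4, 5 and 6. KO libraries 2 and 3 were almost empty of it, KO library 1 was intermediate and all WT libraries were high. In CPM the values were 2.68, 0.0471 and 0.106 in KO and 17.8, 15.3 and 20.6 in WT libraries. The means were 0.946 ± 1.51 CPM in KO and 17.9 ± 2.66 CPM in WT, an 18.3-fold lower level in KO (log2 -4.20 ± 1.18 SE, adjusted p = 0.0459). The value depends on KO library 1: with KO libraries 2 and 3 alone, which held 3 reads, the level was 237-fold lower than in the 3 WT libraries (95% exact counting interval 81.0 to 1152, counting error only). The adjusted p was between 0.0847 and 0.135 when any library other than KO library 1 was left out. Other lymphatic endothelial genes had fewer reads in KO libraries as well: Lyve1 had 15, 19 and 17 reads in KO and 92, 117 and 65 in WT libraries, and Prox1 had 2, 0 and 0 reads in KO and 20, 10 and 16 in WT libraries. Of the 6 genes on that list Ccl21a and Reln had 0 reads in every library, and the summed level of the list, nearly all of it Pdpn, was 69.4 to 91.5 CPM in KO and 296 to 354 CPM in WT libraries.

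Markers of mesothelium, the cell layer that covers organs, moved with Flt4. Of 10 tested mesothelial markers 9 were called as lower in KO, beside 13.7% of all tested genes. The median log2 fold change of the 10 was -4.48 when genes with 0 reads are set at a bound of 3 reads. Muc16, Krt8 and Wt1 would not have passed the count filter on their KO libraries, so the filter shapes both values. The whole list summed to 948, 284 and 290.2 CPM in KO libraries and 3689.9, 3549 and 3851 CPM in WT libraries. The marker that was not called, Gpm6a, made up much of the sum in KO library 1, with 583, 45.1 and 46.4 CPM in KO and 257, 223 and 279 CPM in WT libraries. Without Gpm6a the sums were 365, 238 and 244 CPM in KO and 3433, 3326 and 3573 CPM in WT libraries, so KO library 1 was nearer to the other KO libraries than to WT. Msln had 44.0, 0.990 and 1.38 CPM in KO and 773, 808 and 778 CPM in WT libraries. Muc16 had 0 reads in KO libraries and 114, 75.3 and 141 CPM in WT libraries. Krt8 and Krt18 also had 0 reads in KO libraries but were scarce in WT, with 15, 17 and 11 reads and 6, 6 and 9 reads. Epithelial markers summed to 9.31 to 13.3 CPM in KO and 89.1 to 106 CPM in WT libraries. The part of these cells in the result for Flt4 or for any other member was not tested.

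Of 8 tested genes among the other VEGF ligands and co-receptors 3 were called, all higher in KO. Nrp1, which binds VEGFA beside KDR, rose to 257, 296 and 306 CPM in KO libraries, against 71.0, 57.0 and 73.0 CPM in WT libraries (log2 2.10 ± 0.13 SE, adjusted p = 0.000721). Per length Nrp1 had 71.7 ± 3.38 RPKM in KO and 17.8 ± 2.43 RPKM in WT libraries, far above the 3 receptor kinases in both genotypes. Nrp2, the co-receptor that binds VEGFC, had 5.24, 48.8 and 49.3 CPM in KO and 25.2, 30.3 and 24.0 CPM in WT libraries (log2 0.38 ± 0.74 SE, adjusted p = 0.728). KO library 1 lay below and the other KO libraries above all WT libraries. Sdc2, which encodes a cell-surface proteoglycan that binds growth factors, and Cd44 were higher in KO by 1.66 and 1.13 on the log2 scale.

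Eng had the smallest adjusted p of the 9 tested members. The gene, at chr2:32646595-32682669 on the plus strand, had 297.8, 265.5 and 263.9 CPM in KO libraries and 107.6, 77.2 and 109.7 CPM in WT libraries. All KO libraries lay close together and well above all WT libraries, and the lowest WT value was that of library 5. The means were 275.7 ± 19.1 CPM in KO and 98.2 ± 18.2 CPM in WT, a 2.81-fold higher level in KO (log2 1.49 ± 0.16 SE, adjusted p = 0.00296). The call held in each of the 6 fits that left out 1 library, with adjusted p no higher than 0.0215, but not with the nearly identical libraries summed (log2 1.60, adjusted p = 0.0945). Eng overlaps Fpgs on the other strand, which had 1771 reads over the KO and 2179 over the WT libraries.

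Of 9 genes known to respond to BMP9 and ALK1 in endothelium, 7 were tested and 6 were called, all higher in KO, beside 14.1% of all tested genes. The median log2 fold change of the list was 1.47, beside 0.02 over all tested genes. Id2 had 96.0, 74.0 and 77.8 CPM in KO and 33.6, 27.3 and 28.6 CPM in WT libraries (log2 1.47 ± 0.14 SE). Smad6 and Smad7, inhibitors of the same pathway, differed by 1.72 ± 0.20 and 1.33 ± 0.10 on the log2 scale, Id3 by 1.11 ± 0.13 and Hes1, also a Notch target, by 1.78 ± 0.13. Hey2 had 37, 16 and 11 reads in KO and 0, 0 and 1 in WT libraries, a ratio of 69.3 (95% exact counting interval 12 to 2779). Id1, the gene most often used as a readout, had 124.96, 86.2 and 86.2 CPM in KO and 77.8, 62.1 and 83.6 CPM in WT libraries and did not pass the test (log2 0.41 ± 0.19 SE, adjusted p = 0.157). Hey1 and Tmem100 were below the filter, with 1 read each over the KO libraries and 10 and 44 reads over the WT libraries. Hey2 passed the filter through its reads in KO libraries alone. The share called and the median leave out Hey1 and Tmem100, whose reads were mostly in WT libraries, so the filter shapes both values.

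Of 14 tested endoglin partners, 2 were called, both higher in KO: the transducers Smad9 (log2 1.43 ± 0.11 SE) and Smad1 (log2 0.64 ± 0.08 SE). Acvrl1, the receptor partner of endoglin, had 32.5, 8.06 and 7.93 CPM in KO and 9.59, 3.41 and 8.62 CPM in WT libraries. Its groups overlapped, and the highest value was that of KO library 1 (log2 1.17 ± 0.70 SE, adjusted p = 0.249).

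The angiopoietins that could be tested moved in opposite directions. Angpt2, at chr8:18690263-18741562 on the minus strand, had 52.7, 51.7 and 56.9 CPM in KO libraries and 6.82, 19.8 and 4.86 CPM in WT libraries. The KO libraries were alike, all above the WT libraries, and WT library 5 was 3.39 times the mean of the other WT libraries. The means were 53.8 ± 2.79 CPM in KO and 10.5 ± 8.13 CPM in WT, a 5.10-fold higher level in KO (log2 2.35 ± 0.53 SE, adjusted p = 0.0245). Without WT library 5 the log2 fold change was 3.20, and the call was lost when KO library 2 or 3 or WT library 4 or 6 was left out (adjusted p from 0.0626 to 0.0967). Angpt2 overlaps Mcph1 on the other strand, which had 1290 reads over the KO and 903 over the WT libraries.

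Angpt4, whose product is also a TEK ligand, at chr2:151911210-151945337 on the plus strand, had 12, 5 and 4 reads in KO libraries and 65, 178 and 62 reads in WT libraries. In CPM this is 0.519, 0.236 and 0.213 in KO and 2.90, 7.32 and 2.87 in WT libraries. Every KO library was below every WT library, and WT library 5 again stood above the others of its genotype, at 2.54 times their mean. The means were 0.323 ± 0.171 CPM in KO and 4.36 ± 2.56 CPM in WT, a 13.2-fold lower level in KO (log2 -3.72 ± 0.60 SE, adjusted p = 0.00915). The call held in each of the 6 fits that left out 1 library, with log2 values from -4.26 to -3.13, and not with the nearly identical libraries summed (log2 -3.79, adjusted p = 0.135).

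Angpt1, at chr15:42424723-42676977 on the minus strand, had 2, 0 and 0 reads in KO and 0, 4 and 1 reads in WT libraries. The KO to WT ratio of 0.433 had a 95% exact counting interval of 0.0412 to 2.65, so a difference was not detectable at this depth. Their receptor was nearly absent: Tek had 1, 3 and 1 reads in KO and 10, 0 and 3 reads in WT libraries, and Tie1, the related orphan receptor, had 0 reads in all 6. Ptprb, the phosphatase that acts on TEK, had 4.76, 39.2 and 36.1 CPM in KO and 2.85, 5.59 and 3.15 CPM in WT libraries. It was called as higher (log2 2.78 ± 0.80 SE, adjusted p = 0.0483) although KO library 1 lay below WT library 5. Of 4 tested genes around the TIE receptors the other one called was Itgb1, an integrin subunit that angiopoietins can bind, which was higher in KO by 0.68 ± 0.08 on the log2 scale (SE).

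**Figure D2:**
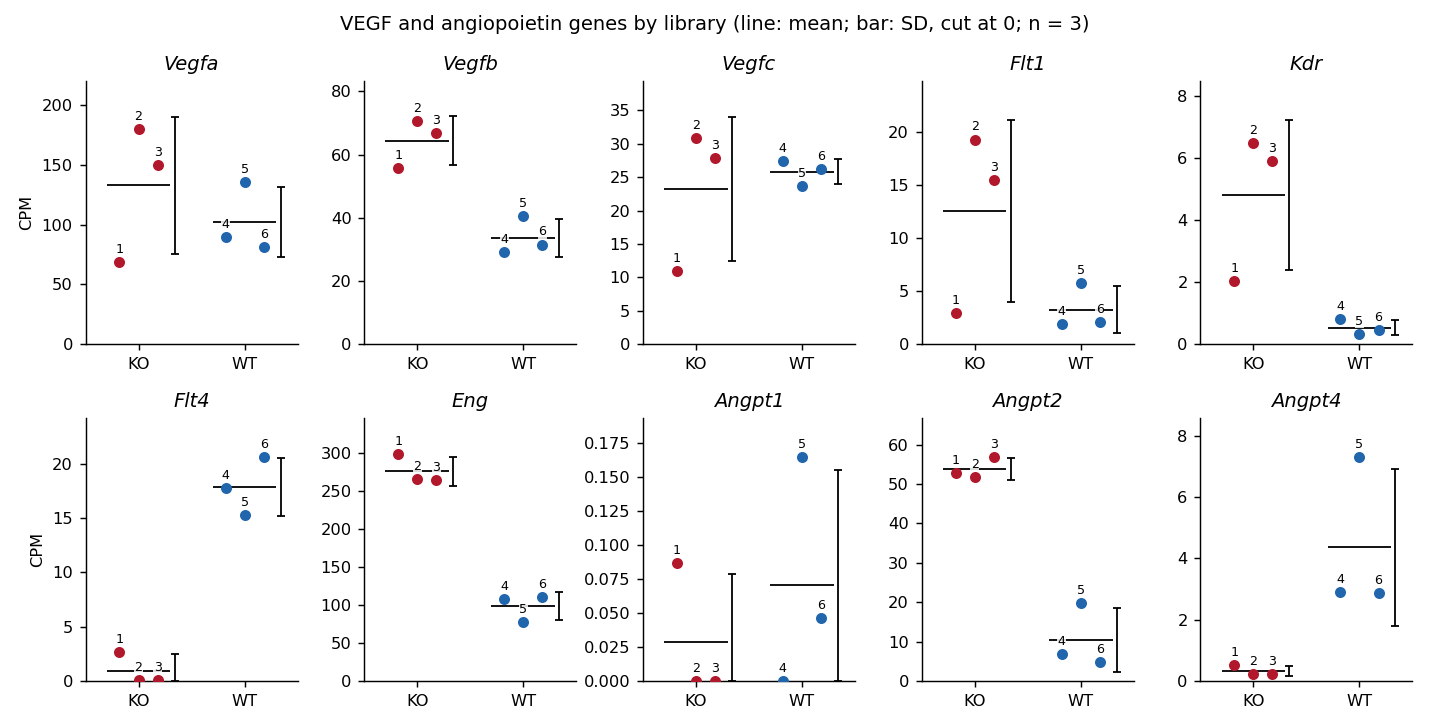
CPM of each of the 10 genes, 1 point per library with its number, KO in red left of WT in blue, each axis from 0, with a line at the mean and a bar of 1 SD (n = 3). The groups are apart for Vegfb, Kdr, Flt4, Eng, Angpt2 and Angpt4, and KO library 1 leaves the other KO libraries for Vegfa, Vegfc, Flt1, Kdr and Flt4. WT library 5 is highest of its genotype for Angpt2, at 19.8 CPM, and Angpt4, at 7.32 CPM, and also for Vegfa, Vegfb, Flt1 and Angpt1.

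The deposited table also counts reads that cross exon junctions and reads in introns. Every exon read of the 10 genes was a unique read. Junction reads, not scaled for depth, did not overlap between genotypes for the same 6 genes as all exon reads. They are part of the exon reads, so this is not separate evidence. Their share over all genes was not computed, and for exon reads it was 49.7% of tested genes. Eng had 3883, 3290 and 2921 junction reads in KO and 1329, 1099 and 1382 in WT libraries, Angpt2 had 540, 454 and 431 in KO and 65, 202 and 42 in WT libraries, and Flt4 had 29, 1 and 1 in KO and 217, 200 and 226 in WT libraries. Their share of exon reads was alike in both genotypes for the well-covered genes, at 57.8% in KO and 57.2% in WT for Eng and 42.1% in KO and 41.8% in WT for Angpt2. Angpt4 was the exception, with 28.6% in KO, from 6 junction reads, and 47.9% in WT. Its intron reads were 8, 6 and 12 in KO and 14, 22 and 13 in WT libraries, so introns held 55.3% of its reads in KO and 13.8% in WT. Kdr had 0, 1 and 0 intron reads in KO and 0 in each WT library beside 31, 82 and 62 junction reads in KO and 8, 5 and 5 in WT libraries.

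The KO to WT difference had the same direction under title numbers 1 and 2 in 6 of the 9 tested members, though not always a similar size. For title number 1 the ratio is KO library 1 over WT library 5, and for title number 2 it is the mean of KO libraries 2 and 3 over the mean of WT libraries 4 and 6. Angpt4 was 14.1-fold lower in KO for title number 1 and 12.9-fold lower for title number 2. Eng was 3.86-fold and 2.44-fold higher in KO in that order, Kdr 6.19-fold and 9.80-fold higher, Angpt2 2.66-fold and 9.29-fold higher and Vegfb 1.38-fold and 2.27-fold higher. Flt4 was 5.70-fold lower in KO for title number 1 and far lower for title number 2, where KO libraries held 3 reads. For Vegfa, Vegfc and Flt1 the ratios pointed in opposite directions. Vegfa had a ratio of 0.505 for title number 1 and 1.93 for title number 2, Vegfc 0.462 and 1.10, and Flt1 0.500 and 8.78. Opposite directions were seen in 3 of the 9 tested members and in 34.5% of all tested genes. Among the 3524 called genes only 3 (0.0851%) had them, so the agreement in the 6 called members comes with the call. With 1 library of each genotype under title number 1, the difference between the ratios was not tested. With this number as a covariate, all 6 called members were called again.

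**Figure D3:**
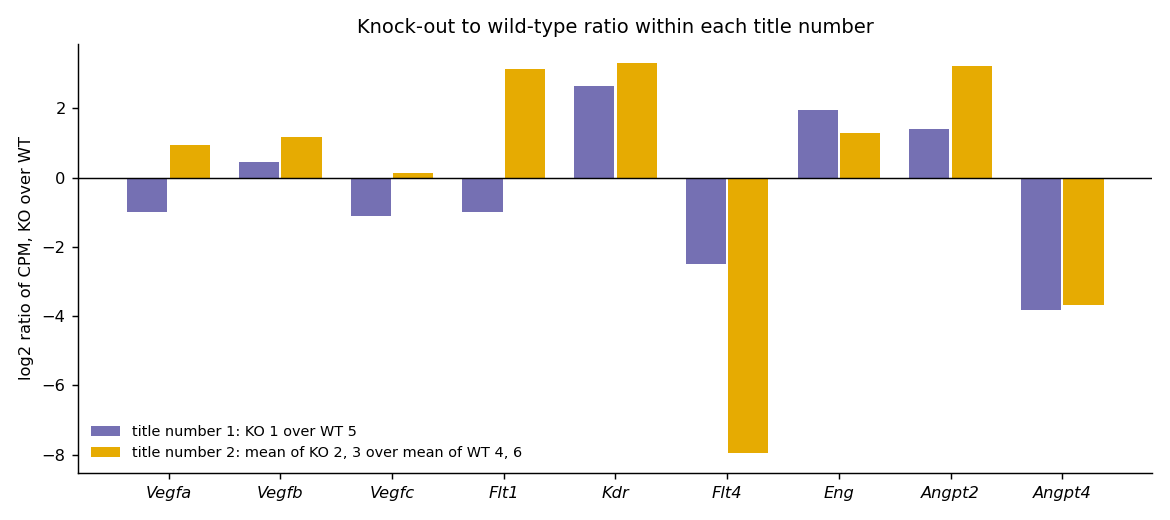
log2 ratio of CPM, KO over WT, for the 9 tested genes, in purple for title number 1 (KO library 1 over WT library 5) and in yellow for title number 2 (means of 2 libraries per genotype). Bars of a gene point the same way for the 6 called genes, as they do for nearly all genes called in the test. They point opposite ways for Vegfa, Vegfc and Flt1, and the long yellow bar of Flt4 rests on 3 KO reads.

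Within a genotype, KO library 1 differed from the mean of KO libraries 2 and 3 by at least 2-fold in 17.04% of all tested genes and in 5 of the 9 members. It held 0.415 times their mean for Vegfa, 0.372 times for Vegfc, 0.167 times for Flt1, 0.328 times for Kdr and 35.0 times for Flt4. Eng, at 1.13 times, and Angpt2, at 0.970 times, were close to level among the KO libraries. WT library 5 differed from the mean of WT libraries 4 and 6 by at least 2-fold in 3.72% of all tested genes and in 3 of the 9 members, Flt1 at 2.93 times, Angpt2 at 3.39 times and Angpt4 at 2.54 times. Sums of mesenchymal markers were uneven among the KO libraries too: smooth muscle markers summed to 997, 2551 and 2479 CPM, fibroblast markers to 5784, 15845 and 17689.9 CPM and pericyte markers to 389, 1011 and 1058 CPM in KO libraries 1, 2 and 3. In WT libraries these sums were 962 to 1120.2 CPM for smooth muscle, 6078 to 6106 CPM for fibroblast and 230.6 to 246 CPM for pericyte markers. The sums rest on a few abundant genes, Pdgfrb among the pericyte markers (311, 951 and 995 CPM in KO libraries) and collagens among the fibroblast markers. Other markers ran the other way among the KO libraries: Cspg4 had 36.8, 11.8 and 13.2 CPM, Notch3 31.9, 22.5 and 24.2 CPM, Cd34 192, 25.97 and 28.9 CPM and Ly6a 65.1, 14.99 and 13.8 CPM. Of the pericyte markers Rgs5, Kcnj8 and Abcc9 had less in every KO library than in any WT library. The part of these cells in the values of Vegfa, Vegfc, Flt1 and Kdr was not tested.

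**Figure D4:**
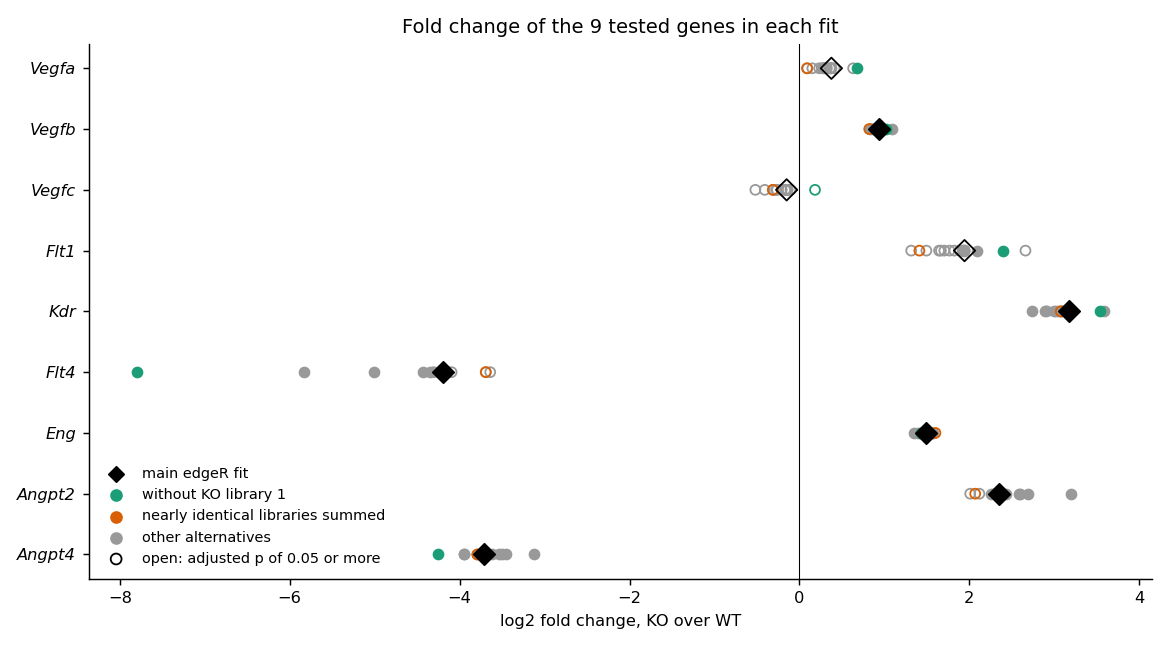
log2 fold change, KO over WT, of the 9 tested genes in the edgeR fit of all libraries (black diamond). Circles show each alternative fit, and symbols are filled where the adjusted p is under 0.05. The 6 called genes have the same sign in every fit, Flt4 reaches -7.80 without KO library 1, Vegfc crosses 0 there, and every circle of the fit with summed libraries (orange) is open.

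For each tested member the genes of most similar pattern were found as those with the smallest root mean square difference of centred log2 CPM over the 6 libraries. Nearest to Eng were Sulf2, at 0.048, and Cav1, at 0.081. For Vegfb these were Fat1 (0.081) and Dsel (0.086), for Vegfa Tnfaip2 (0.065) and Gys1 (0.119), and for Vegfc Sinhcaf (0.051) and H2ac6 (0.080). The other members had no neighbour as close: Angpt4 was nearest to Slfn5 (0.132) and Grem1 (0.214), Flt1 to Slc38a4 (0.187) and Tspan12 (0.287), Kdr to Tlr6 (0.199) and Lyz2 (0.230), Flt4 to Atp9a (0.212) and Tnfrsf11a (0.249), and Angpt2 to Penk (0.262) and Mtus2 (0.400).

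The wider pathway was read from lists of genes chosen by function, of which 170 distinct genes were tested, 42 (24.7%) called as higher and 19 (11.2%) as lower in KO, beside 14.1% and 13.7% of all tested genes. The share called in either direction, 27.8% over all tested genes, was 14.3% for endoglin partners, 25% for the processing of VEGFC and VEGFD, 26.1% for the hypoxia response, 27.3% for semaphorins and plexins, 33.3% for inhibitors of angiogenesis and 36.6% for receptor signal transduction. It was 37.5% for other VEGF ligands and co-receptors, 40% for components of the hypoxia pathway, 42.9% for other angiogenic growth factors and 46.7% for the VEGF response, 50% for the TIE and the angiopoietin-like lists and 85.7% for the response to BMP9, each from 15 or fewer tested genes. The share for the response to BMP9 leaves out Hey1 and Tmem100, which were below the filter. Of 8 tested genes that process VEGFC and VEGFD, 1 was higher and 1 was lower. The lower one was Ccbe1, which VEGFC needs for its maturation, with 0.779, 0.424 and 0.798 CPM in KO and 7.62, 19.5 and 7.04 CPM in WT libraries (log2 -4.09 ± 0.55 SE, adjusted p = 0.00571). Its groups did not overlap, and WT library 5 was the highest, as it was for Angpt4. The higher one was Adamts2 (log2 0.94 ± 0.11 SE). Of 11 tested class 3 semaphorins and plexins, the ligands and partners that share the neuropilins with VEGF, Plxna2 was higher (log2 0.89) and Plxna4 and Sema3d were lower (log2 -1.46 and -2.52). Of 4 tested angiopoietin-like genes Angptl2 was higher (log2 1.55) and Angptl4, which also takes part in lipid metabolism, was lower (log2 -2.12).

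Downstream of the receptors, 15 of 41 tested signal transducers were called, 11 higher and 4 lower in KO, with a median log2 fold change of 0.19. Among them the calcineurin subunit Ppp3cb (log2 0.73) and the focal adhesion kinase Ptk2 (log2 0.50) were higher, and Ppp3ca (log2 -0.94), Grb2 (log2 -0.40) and Src (log2 -0.30) were lower. Of 15 tested genes that respond to VEGF in endothelium, 5 were higher and 2 lower, with a median of 0.27. The early response genes Egr2 (log2 2.39 ± 0.34 SE) and Egr1 (log2 1.07 ± 0.16 SE) were higher, as was the netrin receptor gene Unc5b (log2 0.98), while Apln, the gene of the vascular peptide apelin (log2 -1.43), and Rcan1, a calcineurin inhibitor (log2 -0.74), were lower.

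Genes of the hypoxia pathway, which controls Vegfa in many cells, were called in both directions. Hif1a, the oxygen-regulated subunit, fell to 186, 228 and 224 CPM in KO libraries, against 593, 769.9 and 533 CPM in WT libraries (log2 -1.57 ± 0.17 SE, adjusted p = 0.00306). Of 10 tested components, 2 were higher (Egln1, log2 0.72, and Arnt, log2 0.43) and 2 lower (Hif1a and Egln3, log2 -2.30). Of 23 tested hypoxia response genes, 4 were higher and 2 lower, with a median of 0.17, and those named by size of p were Bnip3l (log2 0.73), Mxi1 (log2 0.36) and Ero1l (log2 1.61) on the higher side and Pdk1 (log2 -1.20) and Ndrg1 (log2 -0.97) on the lower side.

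Of 12 tested inhibitors of angiogenesis, 2 were higher and 2 lower. Thbs1 (log2 0.92) and Adamts1 (log2 3.30), which encode secreted proteins that bind or sequester VEGF, were higher, and Col4a3 (log2 -1.92) and Vash1 (log2 -3.70) were lower. Adamts1 had 68.5, 497 and 527 CPM in KO and 28.5, 53.3 and 29.4 CPM in WT libraries, so KO library 1 was the lowest of the KO libraries here as well. Of 14 other angiogenic growth factors 3 were higher, Pdgfa (log2 0.95), Ereg (log2 3.73) and Ptn (log2 4.86), and 3 lower, Mdk (log2 -4.09), Hgf (log2 -0.97) and Tgfa (log2 -0.48), with a median of -0.28. Ptn and Mdk, a pair of related heparin-binding factors, thus moved in opposite directions: Ptn had 4.37, 22.7 and 42.2 CPM in KO and 0.446, 1.07 and 0.834 CPM in WT libraries, and Mdk had 0.216, 0.141 and 0.160 CPM in KO and 1.47, 6.70 and 0.927 CPM in WT libraries.

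**Figure D5:**
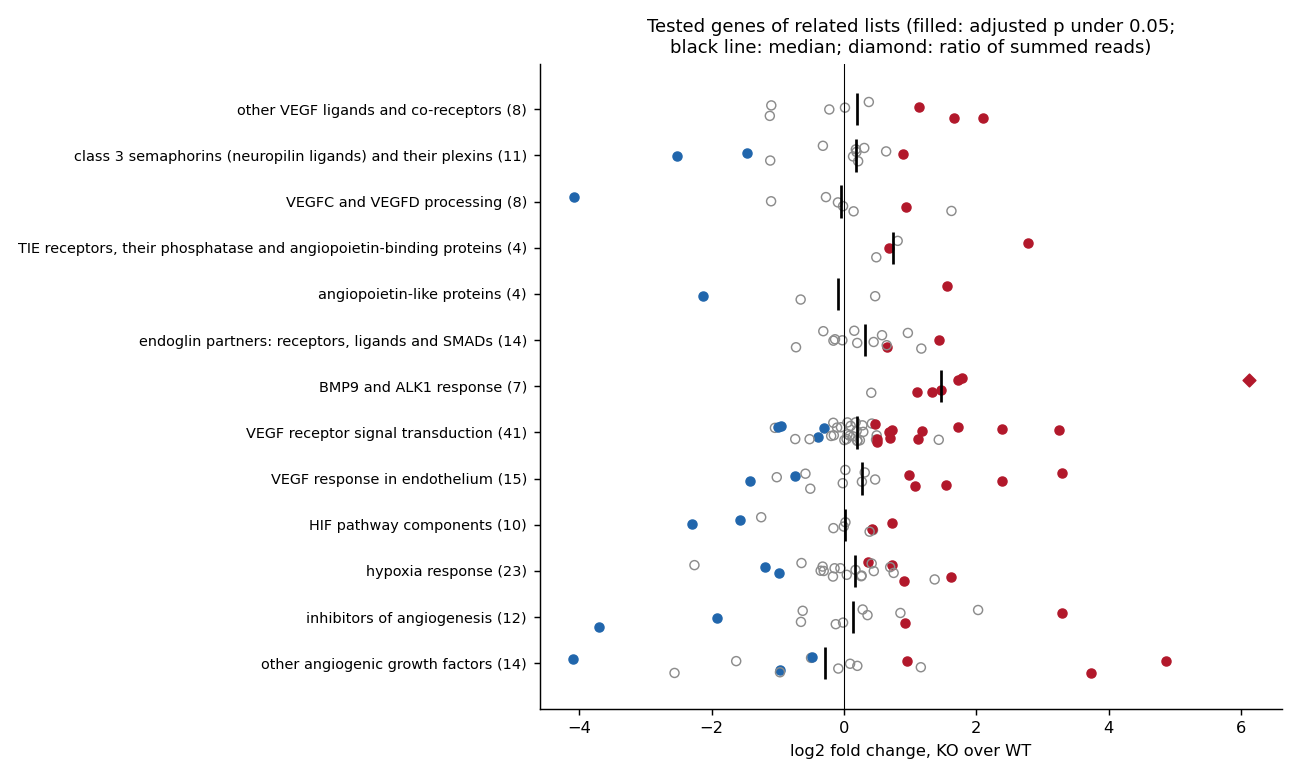
log2 fold change, KO over WT, of every tested gene in 13 lists around the VEGF and angiopoietin systems (number tested in parentheses), filled red for called as higher, filled blue for called as lower and open otherwise, with the list median as a black line and Hey2 drawn at its ratio of summed reads. Most lists spread to both sides of 0, and the tested genes that respond to BMP9 and ALK1 have a median of 1.47.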

How the data were processed

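RNA-seq counts of 3 KO and 3 WT libraries were analysed, grouped by the genotype in the labels. Per the labels' protocols, 1 ug of total RNA went into each library, prepared with a stranded kit that keeps polyadenylated RNA. The deposited counts, made by the authors, are whole exon reads per gene, with unique, junction and intron reads beside them. The deposited RPKM by the authors (exon reads scaled by length and depth) served to order levels. It also gave, without a test, an alternative log2 value for each tested member. The submitters' processing notes name GRCm38 (mm10) as the build. Aligner, counter and strand setting are unknown here, so genes that overlap on opposite strands may share reads. All 10 genes have the table's coordinates in GENCODE M21. Promoters are from RefSeq (GRCm38.p6), with entries for 8 of the 10 genes, and proteins were not used here.

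Exon counts went through edgeR 4.0.16 under R 4.3.3 (filterByExpr with a minimum of 10, TMM, quasi-likelihood F test, genotype as the only term), with Benjamini-Hochberg adjustment over all 12660 tested genes at 0.05. An SE is the log2 fold change divided by the square root of F. DESeq2 1.42.0 and limma 3.58.1 served as alternatives. Genes with 0 reads in a genotype are set at a bound of 3 reads over the group, and exact intervals (95%) cover counting error only. Tested on simulated data for KO against WT (12503 to 12514 genes), edgeR recovered 36.9% of genes changed 2-fold and 75.8% of those changed 4-fold, with 6.74% false calls. The simulated libraries were independent of each other, with 200 genes changed. The real libraries hold nearly identical pairs, so these shares cannot be read as error rates of the real test. The members and lists were chosen with earlier results of these data known. Named were all members, fixed partners, up to 3 called genes of smallest p per list and direction, the leading markers and the 2 genes nearest to each member. The list of BMP9 response genes is given whole, which was decided after its values were seen, as were the ratios by title number. A few list genes that the naming rule would include are not reported here.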

Additional observations from a re-analysis of the deposited data

How the results depend on the processing

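No paired analysis was possible because the replicate numbers run from 1 to 6 and the genotypes share none. The p number and the title number, which both genotypes carry but the labels do not explain, entered as covariates instead and gave 3122 and 4510 called genes, with 6 members called in each. For the 9 tested members 161 alternative values were set beside the main fit. Of these 137 were the same, 19 lost the call, 4 gained one and 1 reversed. A fit counted as the same if it kept direction and call. The difference of mean log2 RPKM, which has no test, counted as the same if within 1 SD of the main log2 value. With nearly identical libraries summed, 17 genes, 0 members and 0 of 171 pathway genes were called (57 of the 171 at an unadjusted p under 0.05), with log2 values of 0.82 for Vegfb, 3.08 for Kdr, -3.69 for Flt4, 1.60 for Eng, 2.07 for Angpt2 and -3.79 for Angpt4. Flt1 passed with DESeq2 (1.94) and with libraries of a title stem summed (2.09). Vegfc reversed without KO library 1 (0.18). Leaving out 1 library gave log2 values of 0.094 to 0.68 for Vegfa, 0.84 to 1.09 for Vegfb, -0.41 to 0.18 for Vegfc, 1.49 to 2.66 for Flt1, 2.89 to 3.59 for Kdr, -7.80 to -3.64 for Flt4, 1.34 to 1.58 for Eng, 2.01 to 3.20 for Angpt2 and -4.26 to -3.13 for Angpt4. It gave 1120 to 8486 called genes (8486 without KO library 1, 1120 without WT library 4), 2 to 8 called members and 30 to 133 called pathway genes. Scaling by total counts alone called 3375 genes, 1353 as higher and 2022 as lower, and called all 6 members. Counting depth limits Angpt1, Tek and Pgf, with at most 13 reads per genotype, and the nearly identical libraries limit what the replicates add.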
